A study of Mus musculus with 9 samples.

Results

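The 31 genes described here mark lymphocytes: 9 are B cell genes and 22 are T cell or natural killer (NK) cell genes. They were listed by name as known lymphocyte markers, out of 35071 genes counted in subcutaneous fat. Every one of the 31 passed the filter on low counts and so was among the 17968 genes tested. RNA of whole subcutaneous adipose tissue was sequenced, from mice of the C57BL/6 strain at an age of 24 weeks. WT animals are littermates without the knockout, and Hete KO and Homo KO animals carry a knockout of AGO1 in endothelial cells; the labels spell the genotypes only as Hete KO and Homo KO. Each group has 3 libraries. The promoter that restricts the knockout to endothelium is not given in the sources used here, nor is the fat depot, the sex, the litter or the batch. Nothing states that the libraries of a group come from separate animals, so the p-values measure the spread between these libraries.

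B cells recognise antigen through a surface immunoglobulin, which signals through the Cd79a and Cd79b chains, and T cells through a receptor that signals through the CD3 chains and the zeta chain, encoded by Cd247. NK cells lack both receptors and, like cytotoxic T cells, kill with perforin and granzymes. Resting fat holds few lymphocytes, but the subcutaneous fat of the mouse surrounds lymph nodes, which are packed with B and T cells and can be sampled with the fat. The libraries were therefore compared for the B cell genes, for the T and NK cell genes, and for genes of lymph node stroma. In RNA of a whole tissue, fewer cells of a type and less RNA per cell cannot be told apart.

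The start regions of 4 genes are shown because the results turn on them: Cd79a and Cr2 are the B cell genes whose groups separated, and Cd3d and Cd3g are neighbours on chromosome 9 with unlike levels. Each stretch runs from 250 bases before the RefSeq start site to 50 bases after it, on the GRCm38.p6 build (RefSeq), 5′ to 3′ on the gene's strand. The Cd79a window is chr7:24897247-24897546 on the plus strand, the Cr2 window is chr1:195176670-195176969 on the minus strand, the Cd3d window is chr9:44981536-44981835 on the plus strand and the Cd3g window is chr9:44980382-44980681 on the minus strand. Capitals mark the core GAGGAA of PU.1 sites, read on either strand (TTCCTC is its reverse complement).
Cd79a: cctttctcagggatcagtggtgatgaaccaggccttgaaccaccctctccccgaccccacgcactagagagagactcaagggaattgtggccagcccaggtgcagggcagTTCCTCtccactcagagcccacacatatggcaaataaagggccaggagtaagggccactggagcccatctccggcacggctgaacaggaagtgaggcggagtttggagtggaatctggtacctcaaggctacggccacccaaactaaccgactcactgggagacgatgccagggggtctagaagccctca
Cr2: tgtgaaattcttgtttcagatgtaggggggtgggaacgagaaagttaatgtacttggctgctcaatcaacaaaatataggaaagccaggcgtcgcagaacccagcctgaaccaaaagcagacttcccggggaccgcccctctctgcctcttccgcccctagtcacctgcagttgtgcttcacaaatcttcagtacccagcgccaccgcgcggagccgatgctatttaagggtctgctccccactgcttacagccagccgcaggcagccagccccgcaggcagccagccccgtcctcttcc
Cd3d: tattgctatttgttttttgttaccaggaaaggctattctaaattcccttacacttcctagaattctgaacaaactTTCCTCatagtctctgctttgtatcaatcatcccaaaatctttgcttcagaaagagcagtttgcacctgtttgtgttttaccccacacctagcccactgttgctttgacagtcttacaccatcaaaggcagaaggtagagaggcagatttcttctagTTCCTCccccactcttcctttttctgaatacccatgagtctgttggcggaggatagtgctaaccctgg
Cd3g: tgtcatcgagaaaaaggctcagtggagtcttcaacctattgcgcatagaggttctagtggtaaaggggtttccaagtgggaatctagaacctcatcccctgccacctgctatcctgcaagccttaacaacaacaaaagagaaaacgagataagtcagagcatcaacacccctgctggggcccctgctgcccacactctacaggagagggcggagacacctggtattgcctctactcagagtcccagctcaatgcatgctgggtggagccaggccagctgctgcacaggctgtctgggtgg
The Cd79a window held 1 such core and the Cd3d window 2, while those letters were not in the Cr2 and Cd3g windows. Start windows were found for 23 of the 31 genes, 6 of them B cell genes and 17 T and NK cell genes. GAGGAA was present in 2 of the 6 B cell genes and in 10 of the 17 T and NK cell genes, against 31.3% of 27025 genes with a window. The RUNX core TGTGGT was present in 1 and in 9 of them, against 18.9% of genes. The octamer ATGCAAAT was in none of the 23, against 2.0% of genes, and the EBF core CCCNNGGG was in 1 B cell gene (Cd22) and 2 T and NK cell genes, against 15.4%. All motifs were searched on both strands, and a match describes letters and not a bound site. Cd3g and Cd3d start 1355 bases apart, at 44980431 and 44981786, and are transcribed away from each other.

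The targeted gene, Ago1, was measured at 69.9, 63.8 and 63.4 CPM (counts scaled to the normalised size of the library) in WT 1, 2 and 3, at 51.2, 59.7 and 60.1 CPM in Hete KO 1, 2 and 3, and at 62.2, 58.6 and 25.8 CPM in Homo KO 1, 2 and 3. Both knockout groups lay below WT without overlap, but neither passed edgeR's test (adjusted p = 0.441 for Homo KO and 0.699 for Hete KO), and endothelial RNA is only part of the tissue. Total estimated counts on genes were between 20689670 and 27996656 per library, so that 1 CPM stood for 20.7 to 28.0 counts before the normalisation factor. Skeletal muscle genes held 3.15% of the counts of Hete KO 2, 1.25% of those of WT 1 and 1.17% of those of WT 2, and at most 0.155% elsewhere. Liver genes other than Hp took 0.107% in WT 2 and 0.0923% in WT 3, and under 0.01% in the other 7.

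The lymphocyte genes were scarce. The 9 B cell genes together took between 0.00343% (95% Wilson interval 0.00321 to 0.00366%, counting error only) and 0.00667% (0.00637 to 0.00699%) of a library's counts, and the 22 T and NK cell genes between 0.00493% (0.00467 to 0.00521%) and 0.00811% (0.00775 to 0.00848%). Of the B cell genes, 4 stayed under 5 CPM in all 9 libraries, as did 15 of the T and NK cell genes. Per length, in TPM (transcript abundance scaled to length and library), the order among B cell genes by mean over the 9 libraries was Cd37 at 12.1, Cd22 at 8.22, Cr2 at 7.14, Fcer2a at 3.02, Cd79a at 1.58, Pax5 at 1.43, Ms4a1 at 1.41, Cd79b at 0.899 and Blk at 0.366 TPM. The ranges over libraries of neighbours in this order overlapped. Among T and NK cell genes Cd3d led at 16.5 TPM, followed by Cd247 at 7.96, Cd3e at 5.63, Il7r at 4.75 and Cd2 at 4.18 TPM, and Gzmb at 0.467 and Prf1 at 0.442 TPM were lowest.

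No member passed edgeR's test in any of the 3 comparisons (0 of 31 with an adjusted p under 0.05). The same test called 0.0% of all genes tested between Homo KO and WT, 0.417% between Hete KO and WT, and 0.0% between Homo KO and Hete KO. At an unadjusted p under 0.05, 3 B cell genes and 2 T and NK cell genes were higher and none lower in Homo KO than in WT, against 16.4% of all genes in either direction. Between Hete KO and WT 3 B cell genes were higher and 1 T and NK cell gene was lower, against 21.9% of all genes. Between Homo KO and Hete KO there was none, against 5.44%. DESeq2 called 2 B cell genes, Cd79a and Cr2, in Homo KO against WT, where it called 3.63% of all genes, and the same 2 in Hete KO against WT, where it called 9.32%. It called no member between Homo KO and Hete KO, where it called 0.0445% of all genes. The comparisons of Homo KO and of Hete KO with WT share the WT libraries.

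Among the B cell genes the receptor chain Cd79a separated the knockout groups from WT. Cd79a was at 0.543, 0.481 and 0.214 CPM in WT 1, 2 and 3, at 2.04, 0.632 and 2.72 CPM in Hete KO 1, 2 and 3, and at 1.09, 2.09 and 3.08 CPM in Homo KO 1, 2 and 3. Every knockout library was above every WT library, and Hete KO 2 was the knockout library nearest to WT. The WT levels rest on 13, 12 and 6 counts. The mean was 0.413 ± 0.175 CPM in WT, 1.8 ± 1.07 CPM in Hete KO and 2.09 ± 0.997 CPM in Homo KO (SD, n = 3 each). The log2 fold change was 2.34 ± 0.63 (SE) in Homo KO and 2.12 ± 0.63 in Hete KO, with edgeR adjusted p = 0.184 and 0.107 and DESeq2 adjusted p = 0.017 and 0.0183. Without WT 1, WT 2 and Hete KO 2, the libraries with muscle transcripts, it was 3.26 and 3.45 (edgeR adjusted p = 0.219 and 0.246), a fit in which WT 3 alone stands for WT.

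Cr2, a complement receptor of B cells and follicular dendritic cells, was at 6.47, 4.29 and 5.46 CPM in WT 1, 2 and 3. It was at 11.3, 9.44 and 12.7 CPM in Hete KO 1, 2 and 3, and at 9.56, 8.56 and 10.7 CPM in Homo KO 1, 2 and 3. The lowest knockout library was above the highest WT library, and here Hete KO 2 stood with the other knockout libraries. The log2 fold change was 1.04 ± 0.20 (SE) in Hete KO (edgeR adjusted p = 0.0591, DESeq2 adjusted p = 0.00045) and 0.83 ± 0.20 in Homo KO (edgeR adjusted p = 0.164, DESeq2 adjusted p = 0.0174). Leaving out 1 library moved the edgeR adjusted p in Hete KO across the threshold: it was 0.035 without WT 1, 0.0393 without Hete KO 1 and 0.208 without Hete KO 3. The log2 fold change in these fits was 1.21, 1.05 and 0.96, and without Hete KO 3 edgeR called 0 of all genes. Over all alternatives DESeq2 gave the lowest adjusted p (0.00045). Without WT 2 and WT 3 the log2 fold change in Hete KO was 0.78, a fit in which WT 1 alone stands for WT. Between Homo KO and Hete KO the log2 fold change of Cr2 was -0.22 ± 0.20 (SE, edgeR adjusted p = 0.959). With an offset for transcript length, the log2 fold change was 1.82 in Hete KO and 1.28 in Homo KO (edgeR adjusted p = 0.0767 and 0.207). On the TPM scale Cr2 was between 2.35 and 3.49 in WT and between 4.34 and 12.1 in the knockout libraries.

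Pax5, the transcription factor that sets B cell identity, was at 1.09, 0.401 and 2.60 CPM in WT 1, 2 and 3. It was at 11.9, 0.885 and 6.17 CPM in Hete KO 1, 2 and 3, and at 1.22, 8.46 and 9.82 CPM in Homo KO 1, 2 and 3. It was high in Hete KO 1, Hete KO 3, Homo KO 2 and Homo KO 3 and in the range of WT in Hete KO 2 and Homo KO 1, so that the groups overlapped. Its log2 fold change was 2.24 ± 0.98 (SE) in Homo KO and 2.20 ± 0.98 in Hete KO, with edgeR adjusted p = 0.293 and 0.226. Without WT 3 it was 3.14 and 3.10, without Hete KO 1 the value in Hete KO was 1.37, and with the length offset 1.04 and 1.13. Pax5 shares 636 of its 8853 exon bases with 5730488B01Rik and 125 with Gm12462, both on the opposite strand, and the sources used here do not say whether counting used the strand.

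Ms4a1, which encodes CD20, was at 2.09, 1.1 and 2.03 CPM in WT 1, 2 and 3, at 4.04, 1.73 and 4.33 CPM in Hete KO 1, 2 and 3, and at 1.77, 2.99 and 3.74 CPM in Homo KO 1, 2 and 3. Its high libraries were the same 4 as those of Pax5. Fcer2a, the low-affinity IgE receptor CD23, was between 2.44 and 3.82 CPM in WT, between 3.62 and 5.78 CPM in Hete KO and between 3.37 and 4.76 CPM in Homo KO. Cd79b, the partner chain of Cd79a, was at 0.626, 0.20 and 0.606 CPM in WT 1, 2 and 3, at 1.30, 0.464 and 0.827 CPM in Hete KO 1, 2 and 3, and at 0.136, 0.951 and 0.739 CPM in Homo KO 1, 2 and 3. The Cd79b groups overlapped, and Homo KO 1 held only 3 counts of it.

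The other B cell genes did not follow this order. Cd22, an inhibitory receptor of B cells, was between 13.9 and 15.4 CPM in WT, between 14.3 and 20.4 CPM in Hete KO and between 11.6 and 18.6 CPM in Homo KO (log2 fold changes 0.29 ± 0.20 and -0.04 ± 0.20 (SE) against WT). Between Homo KO and Hete KO the value for Cd22 was -0.33 ± 0.20 (SE, edgeR adjusted p = 0.934). Cd22 shares 479 of its 5042 exon bases with Gm29439 on the opposite strand, so the limit given for Pax5 applies to its level too. Cd37, a tetraspanin of B cells and other leukocytes, was between 9.13 and 16.4 CPM in WT, between 6.45 and 11.4 CPM in Hete KO and between 9.82 and 11.3 CPM in Homo KO. Blk, a Src-family kinase, was between 0.178 and 0.945 CPM in all 9 libraries, with a log2 fold change of 1.06 ± 0.64 (SE) between Homo KO and Hete KO (edgeR adjusted p = 0.934). Cd22 and Cd37 are abundant enough to set the sum: they made up between 45.2 and 77.0% of the CPM of the 9 genes.

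**Figure D1:**
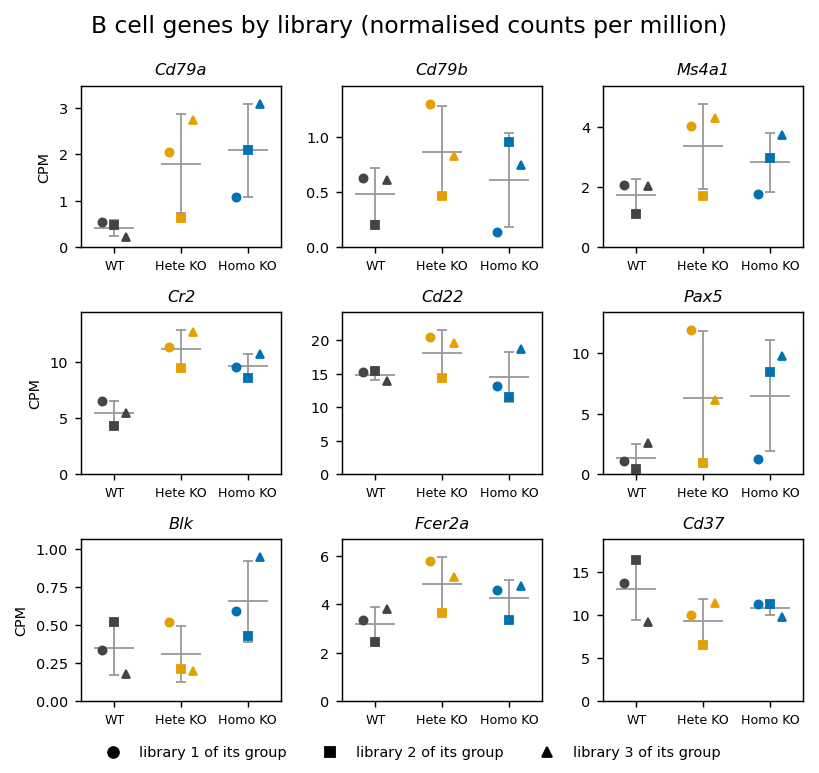
Normalised CPM (vertical axis, from 0) of the 9 B cell genes in each library, with groups on the horizontal axis, 1 symbol per library, and the group mean (dash) with 1 SD (whiskers, cut at 0). Cd79a and Cr2 are the genes whose knockout libraries all lie above the WT libraries, and Pax5 and Ms4a1 are high in Hete KO 1, Hete KO 3, Homo KO 2 and Homo KO 3.

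Over the 9 B cell genes, 7 had a log2 fold change above 0 and 2 below 0 both in Homo KO and in Hete KO against WT, with a median of 0.70 and 0.85. The medians over all genes tested were -0.01 and 0.02. In Homo KO 2 of the 9 (Cd79a and Cr2) did not overlap with WT and were higher, against 10.9% of all genes, and none was lower, against 11.2%. In Hete KO the same 2 were higher, against 12.6% of all genes, and none was lower, against 12.1%. Between Homo KO and Hete KO no B cell gene was separate from the other group, and the median was -0.19. The B cell members that stood above their own median over the 9 libraries numbered 8 of 9 in Hete KO 1, Hete KO 3 and Homo KO 3, 4 in Homo KO 1 and Homo KO 2, 1 in WT 1, 3 in WT 2, and 0 in WT 3 and Hete KO 2. The 5 libraries that were low for Pax5 and Ms4a1 thus included 2 knockout libraries, and the 3 libraries with muscle transcripts were among those 5; the part of muscle transcripts in this was not tested.

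The summed level of the 9 B cell genes was 40.9 ± 2.82 CPM in WT, 56.1 ± 16.0 CPM in Hete KO and 51.8 ± 9.58 CPM in Homo KO (SD, n = 3 each). Leaving out Cd22 and Cd37, a choice made after their values were seen, the sum was 14.5, 9.46 and 14.9 CPM in WT 1, 2 and 3. It was 36.9, 17.0 and 32.1 CPM in Hete KO 1, 2 and 3 and at 19.0, 26.9 and 33.8 CPM in Homo KO 1, 2 and 3. All 6 knockout libraries were above the WT libraries in this sum, and Hete KO 2 and Homo KO 1 were nearest to WT. The separation rests on Cr2, which had a mean of 5.41 CPM in WT, 11.2 CPM in Hete KO and 9.60 CPM in Homo KO. Without Cr2 both knockout groups overlapped with WT, since Hete KO 2 was then below WT 1 and WT 3, and Homo KO 1 slightly below WT 3. Of the other genes in the sum, Cd79a was also separate, while Pax5, Ms4a1, Fcer2a, Cd79b and Blk overlapped with WT.

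The chains of the T cell receptor complex did not separate the groups. Cd3e was at 3.38, 1.92 and 2.64 CPM in WT 1, 2 and 3, at 4.04, 3.12 and 1.90 CPM in Hete KO 1, 2 and 3, and at 1.90, 3.66 and 5.13 CPM in Homo KO 1, 2 and 3. Cd3g was between 1.0 and 1.88 CPM in WT, between 1.19 and 1.99 CPM in Hete KO and between 1.19 and 2.09 CPM in Homo KO. Cd3d, of the same complex, stood apart in level: it was at 16.3, 22.6 and 16.5 CPM in WT 1, 2 and 3, at 15.4, 15.8 and 21.6 CPM in Hete KO 1, 2 and 3, and at 18.3, 11.03 and 13.8 CPM in Homo KO 1, 2 and 3. Per length, the TPM of Cd3d was between 4.95 and 19.3 times that of Cd3g and between 1.24 and 7.71 times that of Cd3e in the same library. All Cd3d counts fell on its protein-coding transcript. Cd247, the zeta chain, was between 4.71 and 8.65 CPM in all 9 libraries, and 3007 of its 5329 exon bases overlap Pou2f1 on the opposite strand, so its level is uncertain.

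Of the kinases and adaptors downstream of the receptor, Lck, the Src-family kinase of T cells, was at 1.42, 1.56 and 1.11 CPM in WT 1, 2 and 3, at 2.0, 1.01 and 1.36 CPM in Hete KO 1, 2 and 3, and at 2.08, 2.57 and 2.38 CPM in Homo KO 1, 2 and 3. The Homo KO libraries were above all others. The log2 fold change of Lck in Homo KO was 0.78 ± 0.34 (SE) against WT (edgeR adjusted p = 0.291) and 0.68 ± 0.34 against Hete KO (edgeR adjusted p = 0.905). Counted on protein-coding transcripts only, the value against WT was 0.09 (edgeR adjusted p = 0.947). Zap70, the kinase that binds the phosphorylated CD3 and zeta chains, was between 0.143 and 1.04 CPM in WT, between 0.337 and 0.593 CPM in Hete KO and between 0.317 and 1.77 CPM in Homo KO. Lat, an adaptor that Zap70 phosphorylates, was between 0.340 and 2.12 CPM over all libraries. Its log2 fold change in Hete KO against WT was -0.81 ± 0.60 (SE, edgeR adjusted p = 0.472). It turned to 0.16 without WT 1, WT 2 and Hete KO 2, which left WT 3 alone for WT.

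The co-receptors were low. Cd4 was at 4.18, 2.85 and 1.71 CPM in WT 1, 2 and 3, between 2.56 and 6.42 CPM in Hete KO and between 3.08 and 3.18 CPM in Homo KO. Cd8a was at 4.30, 2.65 and 2.85 CPM in WT 1, 2 and 3, at 4.15, 3.54 and 3.45 CPM in Hete KO 1, 2 and 3, and at 4.03, 4.85 and 6.37 CPM in Homo KO 1, 2 and 3. The Cd8a groups overlapped through WT 1, and the log2 fold change in Homo KO against WT was 0.64 ± 0.27 (SE), with edgeR adjusted p = 0.281. Without WT 2 and WT 3, the liver-rich libraries, it was 0.24, a fit in which WT 1 alone, the highest WT library for Cd8a, stands for WT. Against Hete KO the value in Homo KO was 0.45 ± 0.27 (SE, edgeR adjusted p = 0.934). Cd8b1, the other CD8 chain, was at 0.877, 0.0802 and 0.107 CPM in WT 1, 2 and 3, of which WT 2 rested on 2.1 estimated counts. It was between 0.253 and 1.07 CPM in Hete KO and between 0.713 and 1.23 CPM in Homo KO, and its log2 fold change in Homo KO was 1.5 ± 0.88 (SE, edgeR adjusted p = 0.425).

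The surface receptors of T cells showed no order by genotype. Cd2, an adhesion receptor of T and NK cells, was between 2.32 and 2.59 CPM in WT, between 1.64 and 4.04 CPM in Hete KO and between 2.49 and 3.42 CPM in Homo KO. Cd5 and Cd6, related scavenger-receptor family members that dampen T cell signals, reached at most 1.38 and 1.48 CPM. Cd6 had a log2 fold change of -0.85 ± 0.54 (SE) in Hete KO against WT (edgeR adjusted p = 0.395). Cd5 was at 0.482, 0.126 and 0.778 CPM in Hete KO 1, 2 and 3 and at 1.13, 0.951 and 0.904 CPM in Homo KO 1, 2 and 3, so the knockout groups did not overlap, but WT spanned 0.361 to 1.38 CPM. Ltb, lymphotoxin beta, which organises lymphoid tissue, was between 0.337 and 1.60 CPM in all libraries.

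Il7r and Il2rb are cytokine receptor chains for IL-7 and for IL-2 and IL-15. Il7r was at 18.9, 13.9 and 8.59 CPM in WT 1, 2 and 3, at 8.42, 4.93 and 9.87 CPM in Hete KO 1, 2 and 3, and at 12.2, 8.75 and 9.86 CPM in Homo KO 1, 2 and 3. WT 1 and WT 2 were above the other 7 libraries, while WT 3 lay among the knockout libraries. The log2 fold change of Il7r in Hete KO against WT was -0.83 ± 0.32 (SE, edgeR adjusted p = 0.171). It was -0.52 without WT 1, and it turned to 0.10 without WT 1, WT 2 and Hete KO 2, which left WT 3 alone for WT. Il2rb was between 4.67 and 6.26 CPM in WT, between 3.75 and 5.44 CPM in Hete KO and between 5.84 and 6.82 CPM in Homo KO, with a log2 fold change of 0.44 ± 0.21 (SE) between Homo KO and Hete KO (edgeR adjusted p = 0.905).

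Genes of killing cells were at the limit of the depth. Gzma was at 0.418, 2.24 and 0.927 CPM in WT 1, 2 and 3, at 0.927, 0.421 and 0.924 CPM in Hete KO 1, 2 and 3, and at 1.31, 1.05 and 1.31 CPM in Homo KO 1, 2 and 3. Gzmb stayed between 0.281 and 0.770 CPM and Prf1, perforin, between 0.240 and 1.11 CPM. Nkg7, a granule protein, was between 0.333 and 0.964 CPM. Ncr1, an activating receptor largely confined to NK cells and related innate lymphoid cells, was at 1.88, 0.0401 and 0.357 CPM in WT 1, 2 and 3, between 1.10 and 1.67 CPM in Hete KO and between 0.945 and 2.04 CPM in Homo KO. WT 1 was as high as the knockout libraries, and the value of WT 2 rests on 1 count. Tbx21, the transcription factor T-bet of type 1 and NK cells, was between 1.01 and 3.26 CPM.

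**Figure D2:**
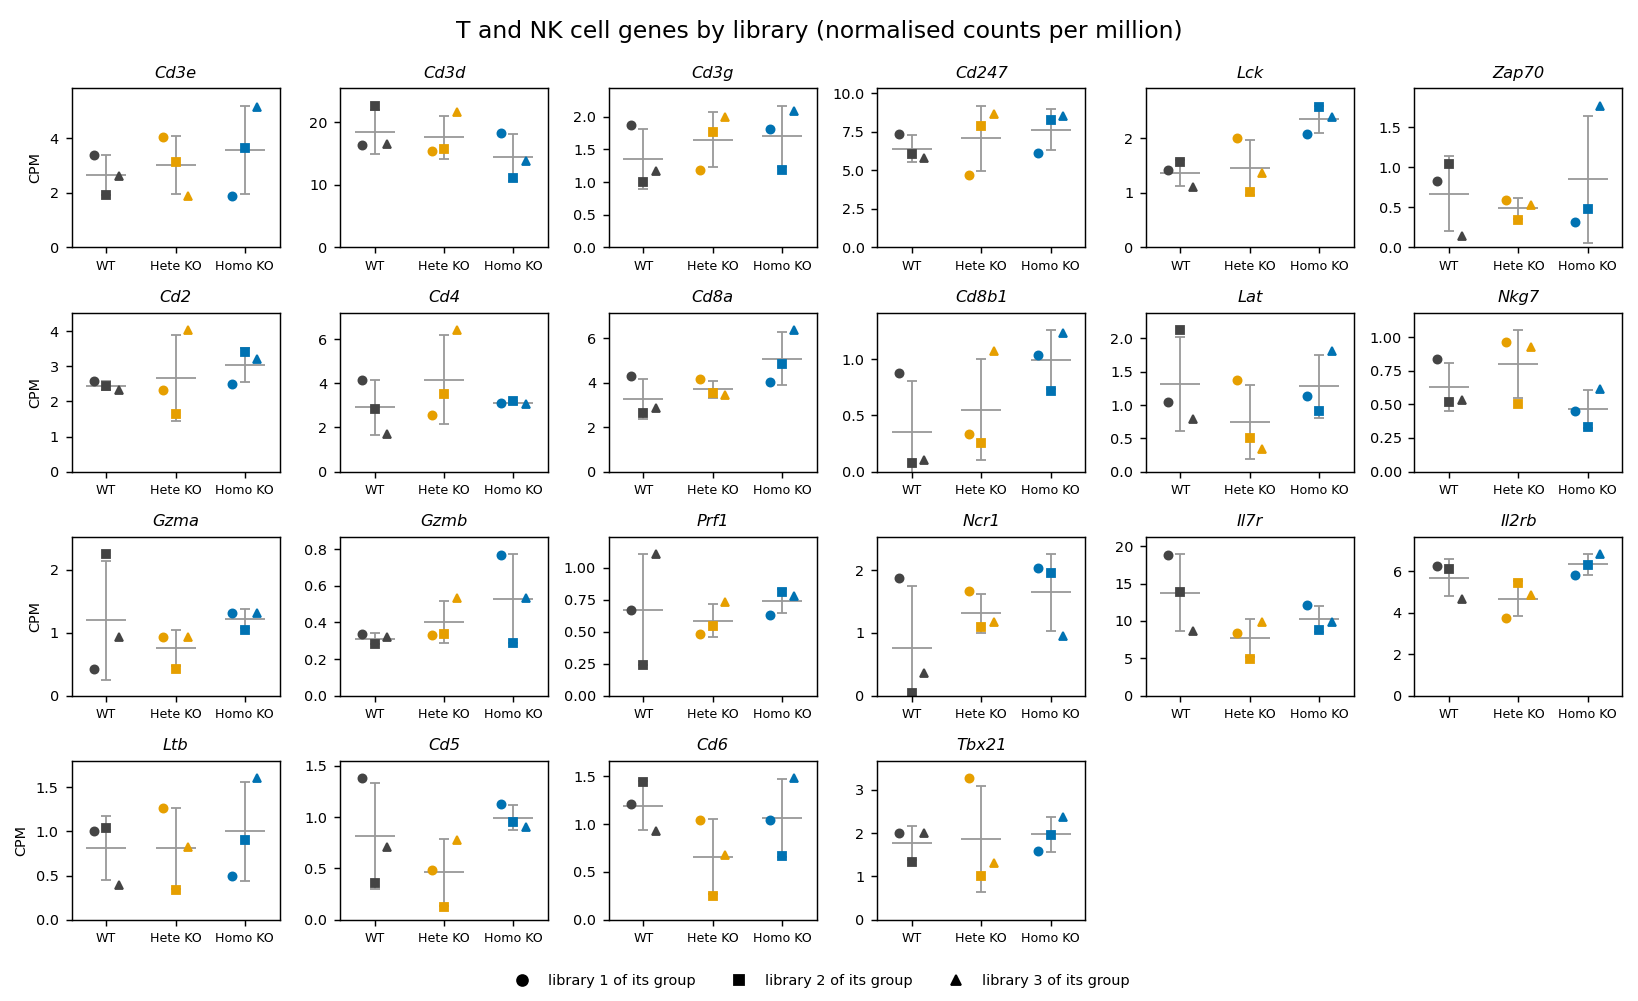
Normalised CPM (vertical axis, from 0) of the 22 T and NK cell genes in each library, with groups on the horizontal axis, 1 symbol per library, and the group mean (dash) with 1 SD (whiskers, cut at 0). Lck is the gene whose Homo KO libraries all lie above WT, and Cd3d is far above Cd3e and Cd3g.

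Of the 22 T and NK cell genes, 17 had a log2 fold change above 0 in Homo KO against WT, 13 in Hete KO against WT and 19 in Homo KO against Hete KO. The medians were 0.27, 0.09 and 0.37, beside -0.01, 0.02 and 0.00 over all genes tested. The median in Homo KO against WT was 0.03 without WT 2 and WT 3, and that in Hete KO against WT was then -0.19. In that fit WT 1 alone stands for WT, and of the WT libraries it had the most of these genes above their own median. In Homo KO 1 of the 22 (Lck) did not overlap with WT and was higher, against 10.9% of all genes, and none was lower, against 11.2%. In Hete KO none was separate from WT, against 12.6% of all genes higher and 12.1% lower. Between the knockout groups 4 (Lck, Gzma, Cd5 and Il2rb) were higher in Homo KO without overlap, against 5.73% of all genes, and none was lower, against 5.64%. Homo KO 3 was above the member's own median in 18 of the 22 genes and WT 1 in 15, while WT 3 and Hete KO 2 were above it in 3.

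**Figure D3:**
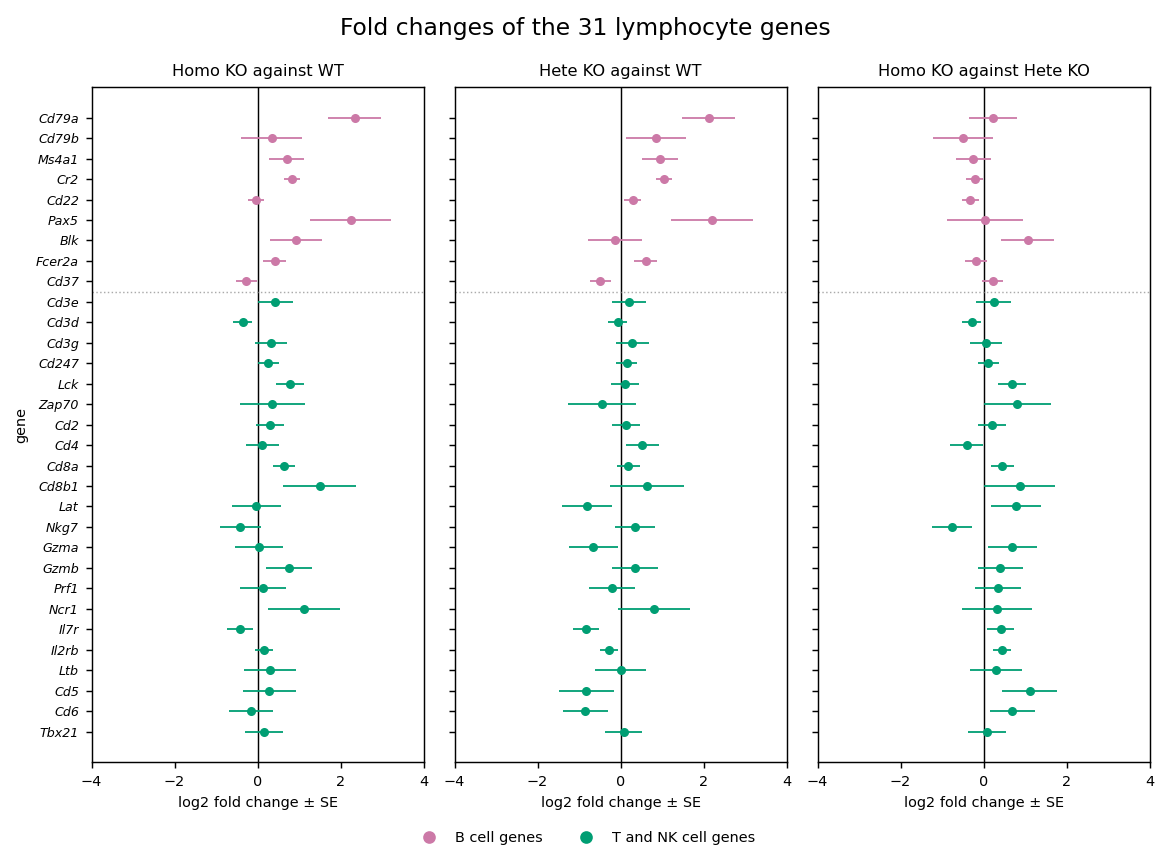
Log2 fold change with its SE (horizontal axis) of the 31 lymphocyte genes (vertical axis) in the 3 comparisons, with B cell genes above the dotted line and T and NK cell genes below it. The B cell genes Cd79a, Pax5 and Cr2 lie to the right of 0 against WT in both knockout groups, and most T and NK cell genes lie within 1 of 0.

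The summed T and NK cell genes gave 68.85 ± 12.02 CPM in WT, 63.2 ± 9.93 CPM in Hete KO and 70.2 ± 6.20 CPM in Homo KO (SD, n = 3 each). The group means differed by less than the SD of WT and that of Hete KO. Hete KO and Homo KO differed by slightly more than the SD of Homo KO. Cd3d and Il7r made up between 30.8 and 50.8% of this sum. Leaving both out, a choice made after their values were seen, the sum was 36.6 ± 6.75 CPM in WT, 37.9 ± 4.42 CPM in Hete KO and 45.6 ± 6.89 CPM in Homo KO (SD, n = 3 each). Its groups overlapped, since WT 1 at 43.9 CPM was above Homo KO 1 at 39.4 CPM. The ratio of the summed B cell genes to the summed T and NK cell genes was 0.550, 0.573 and 0.681 in WT 1, 2 and 3. In Hete KO 1, 2 and 3 the ratio was 1.1, 0.695 and 0.854. The Homo KO libraries 1, 2 and 3 had ratios of 0.622, 0.773 and 0.812. The ratio was highest in Hete KO 1, and Homo KO 1 lay within the range of WT.

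Lymph node tissue was looked for through 8 genes of its stroma and high endothelial venules. Their sum was at 3.67, 6.33 and 6.03 CPM in WT 1, 2 and 3, at 5.60, 5.23 and 4.52 CPM in Hete KO 1, 2 and 3, and at 2.54, 4.42 and 5.79 CPM in Homo KO 1, 2 and 3. WT 2 and WT 3 were highest, followed by Homo KO 3 and Hete KO 1. Each of the 8 stayed under 3 CPM in all 9 libraries, and 5 stayed under 1 CPM. Ccl19 and Ccl21a, chemokines of the T cell zone, reached 2.81 and 2.51 CPM, and Cxcl13, the chemokine of B cell follicles, 2.17 CPM. Madcam1, an addressin of venules, reached 0.226 CPM. Chst4, a sulfotransferase of high endothelial venules, had 0 counts in all 9 libraries, which allows up to 0.107 to 0.145 CPM (3 counts of each library). No gene of this list passed edgeR's test in any comparison, and the median log2 fold change of its 4 tested genes was -0.34 in Homo KO and -0.18 in Hete KO against WT.

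The libraries also differed in other leukocyte genes. The 10 pan-leukocyte genes summed to 330.4 to 512.9 CPM in WT, 184.7 to 321.9 CPM in Hete KO and 282.1 to 411.9 CPM in Homo KO. All 10 had a log2 fold change below 0 against WT in both knockout groups, with medians of -0.42 in Homo KO and -0.84 in Hete KO. DESeq2 called 4 of them lower in Hete KO, against 9.32% of all genes in either direction, and 0 in Homo KO, against 3.63%. The 10 macrophage genes summed to 878.8 to 1244 CPM in WT. Their sums were 485.1 to 672.9 CPM in Hete KO and 617.9 to 893.4 CPM in Homo KO. All 10 were below 0 in log2 fold change in both knockout groups. In Hete KO edgeR called 1 of them lower, the complement gene C1qc (log2 fold change -1.17, edgeR adjusted p = 0.0426), against 0.417% of all genes. There DESeq2 called 8 of the 10 lower, against 9.32% in either direction, and 7 lay below WT without overlap, against 12.1%. In Homo KO DESeq2 called 2 lower, against 3.63%, and 4 lay below WT without overlap, against 11.2%. The knockout libraries, which all had more Cd79a and Cr2 than WT, had smaller macrophage sums than WT except Homo KO 1, and the part of these other cells in the result was not tested. The 6 red cell genes summed to 269.2 to 297.3 CPM in WT and to 76.3 to 216.0 CPM in the knockout libraries, which did not overlap with WT. All 6 had a log2 fold change below 0 against WT in both knockout groups, and 0 passed edgeR's test. At an unadjusted p under 0.05, 4 were lower in each group, against 16.4% of all genes in Homo KO and 21.9% in Hete KO. DESeq2 called 1 lower in Homo KO, against 3.63%, and 3 in Hete KO, against 9.32%. The part of blood in the B cell values was not tested either. S1pr1, a receptor for lymphocyte exit from lymphoid tissue that endothelial cells also hold, was at 62.3, 53.2 and 41.8 CPM in WT 1, 2 and 3 and between 62.3 and 78.5 CPM in the knockout libraries, and it did not pass edgeR's test in any comparison.

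**Figure D4:**
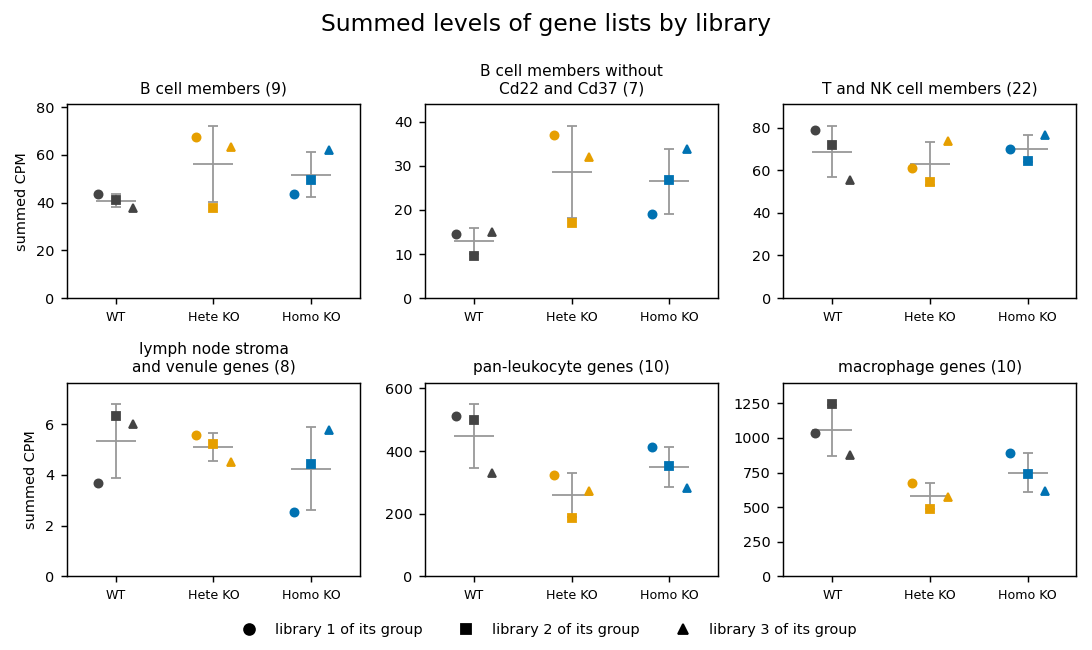
Summed normalised CPM (vertical axes, from 0) of 6 gene lists in each library, with groups on the horizontal axis, the mean (dash) and 1 SD (whiskers). The B cell sum without Cd22 and Cd37 is higher in all 6 knockout libraries than in WT, a separation that rests on Cr2. The sum of the lymph node genes stays under 7 CPM, and the pan-leukocyte and macrophage sums have their highest group means in WT.

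Further genes of the same cells were counted. Of 16 other B cell genes, 0 passed edgeR's test in any comparison. At an unadjusted p under 0.05, 3 were higher in Homo KO than in WT, against 16.4% of all genes in either direction. In Hete KO 3 were higher and 3 lower than in WT, against 21.9% of all genes. The median log2 fold change was 0.46 in Homo KO, with 10 above 0 and 6 below. It was 0.36 in Hete KO, with 9 above 0 and 7 below. In Homo KO 5 lay above WT without overlap, against 10.9% of all genes, and 0 below, against 11.2%. In Hete KO 2 lay above, against 12.6%, and 2 below, against 12.1%. The 16 genes summed to 129.3 ± 27.9 CPM in WT and 87.7 ± 21.1 CPM in Hete KO. Their sum in Homo KO was 110.7 ± 14.4 CPM (SD, n = 3 each). H2-Ob, an MHC class II chaperone chain of B cells, was between 0.626 and 0.721 CPM in WT, at 2.08, 0.506 and 1.75 CPM in Hete KO 1, 2 and 3, and at 1.45, 3.04 and 2.96 CPM in Homo KO 1, 2 and 3 (log2 fold change 1.90 ± 0.53 (SE) in Homo KO, edgeR adjusted p = 0.188, DESeq2 adjusted p = 0.0298). The most abundant of these 16 genes, Pik3ap1, Blnk and Bank1, are adaptors of B cell receptor signalling that macrophages can also hold in part; Pik3ap1 ranged from 13.9 to 78.6 CPM, Blnk from 11.2 to 17.6 CPM and Bank1 from 7.22 to 15.3 CPM. DESeq2 called 2 of the 16 lower in Hete KO, Cd180 and Pik3ap1 (log2 fold changes -1.33 and -1.34), against 9.32% of all genes in either direction. In Homo KO it called 1 of the 16, H2-Ob, against 3.63% of all genes.

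Ighm, the mu heavy chain, was at 548.0, 479.9 and 599.1 CPM in WT 1, 2 and 3, at 567.1, 151.6 and 261.5 CPM in Hete KO 1, 2 and 3, and at 316.9, 348.7 and 323.3 CPM in Homo KO 1, 2 and 3. It was lower in every Homo KO library than in WT (log2 fold change -0.72 ± 0.37 (SE), edgeR adjusted p = 0.366). Igkc, the kappa light chain, was only between 2.09 and 20.8 CPM, so that Ighm made up between 94.1 and 97.7% of the 14 immunoglobulin and plasma cell genes. Of these 14, 8 were tested and 0 passed edgeR's test. DESeq2 called 0 of the 8 in Homo KO, against 3.63% of all genes, and 1 lower in Hete KO, against 9.32%. Below WT without overlap lay 2 in Homo KO, against 11.2% of all genes, and 1 in Hete KO, against 12.1%. Above WT without overlap lay 0 in either group, against 10.9% in Homo KO and 12.6% in Hete KO. In Homo KO 4 of the 8 had a log2 fold change above 0 and 4 below 0 against WT (median -0.14), and in Hete KO 3 were above and 5 below (median -0.75). Ighd, the delta heavy chain of naive B cells, was between 1.92 and 3.47 CPM in WT and highest in Hete KO 1 at 6.45 CPM and Homo KO 3 at 5.59 CPM.

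Of 21 other T cell genes 19 were tested and of 16 other NK and cytotoxic cell genes 13, and none passed edgeR's test. Their median log2 fold changes were 0.04 and 0.00 in Homo KO and 0.04 and 0.05 in Hete KO against WT. The most abundant were Lcp2, an adaptor shared with myeloid cells, between 17.3 and 28.3 CPM, and Prkcq, a kinase that skeletal muscle also expresses, between 16.7 and 36.2 CPM. Il18rap, a receptor chain for IL-18, led the NK list with 6.98 to 13.6 CPM.

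The share of a gene's counts on its protein-coding transcripts was low for some members. It was under 75% for 1 of the 9 B cell genes and for 6 of the 22 T and NK cell genes, beside 26.7% of the 16274 protein-coding genes tested. Ms4a1 had 33.5% of its counts on protein-coding transcripts and 66.5% on those annotated as retained introns, Cd3g 34.2 and 65.8%, Cd3e 44.3 and 55.7%, Zap70 47.1 and 52.9%, and Lck 50.6 and 49.4%. For Lck this share was 97.1, 79.4 and 64.3% in WT 1, 2 and 3. It was 11.8, 33.8 and 36.2% in the Hete KO libraries 1, 2 and 3, and 43.3, 67.0 and 37.0% in the Homo KO ones. Homo KO 2 was the knockout library within the range of WT. In TPM, which divides by the length of each transcript, Lck was between 1.32 and 1.62 in WT and between 1.96 and 6.00 in the knockout libraries, which did not overlap with WT. On protein-coding transcripts alone the log2 fold change of Lck in Hete KO against WT was -1.65 (edgeR adjusted p = 0.125) and with the length offset 1.32 (edgeR adjusted p = 0.176). The direction for Lck thus depended on how its transcripts were counted, and with 24 to 58 counts per library none of these values passed the test. All counts of Cd79a, Cd3d, Il2rb and Ncr1 were on protein-coding transcripts.

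**Figure D5:**
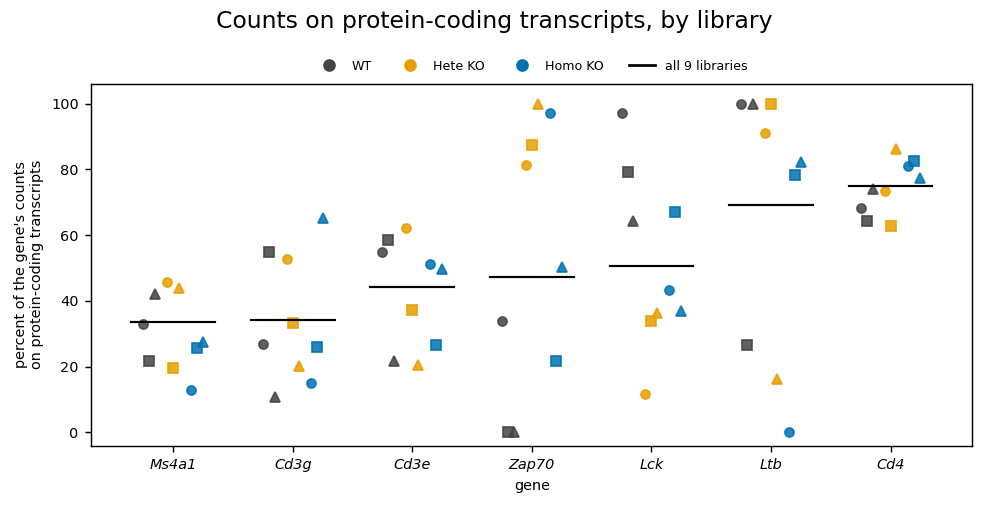
Share of a gene's counts on its protein-coding transcripts (vertical axis, percent) in each library for the 7 members with the lowest share (horizontal axis), coloured by group with 1 symbol shape per library number, and the share over all 9 libraries as a black line. For Lck the WT libraries lie between 64.3 and 97.1% and 5 of the 6 knockout libraries below them.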

How the data were processed

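RNA of 9 libraries (3 WT, 3 Hete KO, 3 Homo KO) was quantified by the authors per transcript. Per the file headers, 1 column holds estimated counts, which are expected counts and not normalised, and another TPM, which the authors' tool scales by effective length. Per the submitters' processing notes the build was mm10, and the quantifier is not given in the sources used here. Transcripts were summed to GENCODE M21 genes (GRCm38, 98.38% of transcripts matched) and counts rounded. All 9 libraries were fitted together with edgeR 4.0.16 (R 4.3.3), TMM normalisation and two-sided quasi-likelihood tests, with Benjamini-Hochberg adjustment over 17968 genes and a threshold of 0.05. This procedure was tested on simulated data with the same spread for every gene and no difference in muscle or liver transcripts between libraries. That setting is simpler than these data. CPM are TMM-normalised. Alternatives used DESeq2 1.42.0 and limma 3.58.1 on log2(TPM + 0.5) and log2(TPM + 0.1). The members and lists were chosen with earlier results of these data known. Every member is given with its level, and fold changes for those past a test or among the 3 smallest p of its list, while Cd22, Il2rb, H2-Ob, Ighm, Ighd and other genes outside that rule were chosen after their values were seen. Replicates differed by more than sampling noise. Some genes are not reported here.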

Additional observations from a re-analysis of the deposited data

Results flagged for a closer look

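Ccr7, the chemokine receptor that guides lymphocytes and dendritic cells into lymph nodes, lay on opposite sides of WT in the 2 knockout groups. It was at 0.668, 0.842 and 0.464 CPM in WT 1, 2 and 3, at 0.111, 0.211 and 0.243 CPM in Hete KO 1, 2 and 3, and at 1.13, 0.998 and 1.27 CPM in Homo KO 1, 2 and 3. Every Hete KO library was below every WT library and every Homo KO library above. The log2 fold change against WT was 0.79 in Homo KO (edgeR adjusted p = 0.413) and -1.79 in Hete KO (edgeR adjusted p = 0.0965). The direct comparison of Homo KO with Hete KO gave 2.58 ± 0.50 (SE), which did not pass after adjustment over all genes (edgeR adjusted p = 0.899, DESeq2 adjusted p = 0.106). The Hete KO levels rest on 3, 5 and 5 counts, and the gene was singled out after its values were seen.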

How the results depend on the processing

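DESeq2 called 2 B cell members in Homo KO and 2 in Hete KO against WT, where edgeR called 0. No filter gave 1 in Hete KO, the replicate block 1, and leaving out 1 library between 0 and 1, which was Cr2 in each case. No alternative called a T or NK cell member, or any member between Homo KO and Hete KO. Against WT, DESeq2 gave no adjusted p for Cd79b, Blk, Zap70, Cd8b1, Nkg7, Gzmb, Prf1 and Cd5. The same held for Ltb in Hete KO against WT, so DESeq2 could not call these genes there. Of all genes, edgeR called 0 between Homo KO and WT; DESeq2 called 652, no filter 1, the 2 groups alone 7, leaving out the muscle-rich libraries 41, leaving out WT 2 and WT 3 as liver-rich 2, and leaving out 1 library between 0 and 153. Between Hete KO and WT edgeR called 75; library totals alone gave 27, DESeq2 1674, no filter 258, the length offset 1, protein-coding transcripts 21, the 2 groups alone 0, the replicate block 248, limma on TPM 0 with either pseudocount, no muscle-rich libraries 11, WT 2 and WT 3 left out 1, and single libraries left out between 0 and 958. Between Homo KO and Hete KO DESeq2 called 8. Leaving out the muscle-rich libraries reversed Il7r (0.10) and Lat (0.16) in Hete KO against WT, and of all 31 members 7 then had the other sign in Hete KO and 7 in Homo KO against WT. Without WT 2 and WT 3 it was 12 in Hete KO and 7 in Homo KO. The first of these fits leaves WT 3 alone for WT, and the second WT 1. The cause was not tested. Same-numbered libraries correlated between -0.072 and 0.458 over 9 pairs, 3 of them over 0.1, and the other pairs between -0.455 and 0.251. Of the 9 libraries, 5 correlated best with a library of their own number. These values do not settle whether the numbers pair samples, and the main fit does not pair them. Leaving out libraries over 0.1% liver counts could not be computed for WT, since all 3 exceed it, WT 1 and WT 3 only through Hp. The limit of 0.05% without Hp was chosen after seeing the data. Low counts limit Cd79a in WT, and Cd79b, Blk and the granzymes in all groups.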
